A study of Mus musculus with 23 samples.

Results

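Serpins are a superfamily of proteins that mostly inhibit serine or cysteine proteases, and their transcripts were followed here in 23 oral tumours of C57BL/6 mice. Members were all array probes whose gene symbol is Serpin followed by a clade letter from a to i and a number. This gave 60 of 25697 probes, for 49 of 16593 named genes, in 8 clades. The rule uses gene symbols and no measured value. Each tumour had 1 Illumina MouseRef-8 v2 array, which reads messenger RNA by hybridisation to beads, and had grown for 21 days.

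The tumours fall into 5 groups. KHR-N-/- tumours (n = 5) have no intact copy of Notch1, KHR-N+/- tumours (n = 4) have 1, and KHR tumours (n = 5) have Notch1 intact. KR-N-/- tumours (n = 4) and KR-N+/- tumours (n = 5) are of a second type with the same pair of Notch1 genotypes, and a KR group with intact Notch1 was not analysed here. The codes KHR and KR are not spelled out in the labels, which give no promoter, Cre driver or cell of origin for the alleles. Biological replicates are numbered within each group without naming animals, so the tests rest on the spread among these samples, some of which could share an animal.

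A serpin offers a protease a bait loop, and cleavage of that loop traps the protease in an irreversible complex. Clades a, c, d, f, g and i are largely secreted, clade b serpins mostly act inside cells and are prominent in stratified epithelium and leukocytes, and the clade h member is a collagen chaperone of the endoplasmic reticulum that inhibits nothing. Notch1 is a cell-surface receptor whose cleaved intracellular part binds the DNA-binding protein Rbpj and promotes differentiation in squamous epithelium.

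Mean array intensity ran from 142.4 to 366.4 and detected probes from 10353 to 12654 over the 23 arrays. The Notch1 probe averaged a log2 intensity of 5.67 ± 0.16 in KHR-N-/- tumours, 6.80 ± 0.85 in KHR-N+/- tumours and 8.27 ± 0.38 in KHR tumours (SD, n = 5, 4 and 5). It averaged 6.02 ± 0.38 in KR-N-/- tumours and 7.72 ± 0.28 in KR-N+/- tumours (SD, n = 4 and 5). Whether this probe lies inside the deleted part of the gene was not analysed here. The library labelled KHR-N+/- replicate 3 read 5.68 for Notch1, within the KHR-N-/- range of 5.40 to 5.80. KHR replicate 5 stood apart from the other KHR tumours in several serpins, as given below. The results that these arrays bear on most are also given without both. KHR replicate 5 was doubted for its serpin values and not for Notch1, at 8.67. Serpin results without it are therefore not independent of that choice. The 5 measured keratinocyte markers, among them Krt5, Krt14 and Trp63, were detected on all 23 arrays, and 0 of the 5 passed the limma test in any comparison.

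The promoters of 6 serpin genes that differed between groups are shown so that the members discussed below can be told apart by more than their names. Each window runs from 250 bases before to 50 bases after a transcription start in RefSeq (GRCm38.p6), read on the gene's own strand. Capitals mark 3 short motifs, searched on both strands. The core bound by Rbpj was searched as TGGGAA, so that a match on the opposite strand reads TTCCCA. The motif of the AP-1 factors was searched in a loose form, TGANTCA, where N is any base. The TATA box was searched as TATAAA, which reads TTTATA when it lies on the opposite strand. No matches overlapped. Of all 32851 windows, 25.6% hold the Rbpj core, 7.81% the loose AP-1 form and 13.6% the TATA box. The median window has 7 CpG dinucleotides.
Serpinb11, chr1:107362064-107362363, plus strand: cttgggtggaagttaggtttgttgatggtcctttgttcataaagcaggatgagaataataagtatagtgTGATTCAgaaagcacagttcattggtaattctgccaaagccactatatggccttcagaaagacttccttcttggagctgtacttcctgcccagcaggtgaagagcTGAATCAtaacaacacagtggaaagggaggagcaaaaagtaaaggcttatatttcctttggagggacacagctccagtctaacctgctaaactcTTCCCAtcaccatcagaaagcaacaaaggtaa
Serpinb3a, chr1:107052254-107052553, minus strand: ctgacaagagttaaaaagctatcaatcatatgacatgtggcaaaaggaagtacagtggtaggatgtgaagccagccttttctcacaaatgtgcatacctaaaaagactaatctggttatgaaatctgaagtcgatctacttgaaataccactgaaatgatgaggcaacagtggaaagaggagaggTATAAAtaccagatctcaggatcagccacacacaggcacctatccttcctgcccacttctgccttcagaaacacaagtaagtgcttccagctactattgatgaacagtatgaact
Serpinb6d, chr13:33661155-33661454, plus strand: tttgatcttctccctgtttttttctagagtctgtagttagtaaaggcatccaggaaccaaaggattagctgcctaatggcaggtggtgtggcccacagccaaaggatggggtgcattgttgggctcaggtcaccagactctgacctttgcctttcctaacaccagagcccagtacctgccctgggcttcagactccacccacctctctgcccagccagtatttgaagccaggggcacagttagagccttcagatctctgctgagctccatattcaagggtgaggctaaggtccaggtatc
Serpina3n, chr12:104406458-104406757, plus strand: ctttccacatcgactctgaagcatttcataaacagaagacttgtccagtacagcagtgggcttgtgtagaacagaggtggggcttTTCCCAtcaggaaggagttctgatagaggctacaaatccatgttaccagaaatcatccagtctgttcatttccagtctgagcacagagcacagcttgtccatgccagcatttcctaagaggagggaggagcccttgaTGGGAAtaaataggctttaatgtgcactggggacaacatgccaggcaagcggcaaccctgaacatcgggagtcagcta
Serpinf1, chr11:75422574-75422873, minus strand: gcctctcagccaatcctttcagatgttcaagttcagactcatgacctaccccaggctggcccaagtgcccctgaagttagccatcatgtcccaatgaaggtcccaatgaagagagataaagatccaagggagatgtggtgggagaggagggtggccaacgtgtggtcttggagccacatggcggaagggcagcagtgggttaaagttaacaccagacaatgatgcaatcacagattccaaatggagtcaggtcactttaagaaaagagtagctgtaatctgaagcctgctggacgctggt
Serpinh1, chr7:99353190-99353489, minus strand: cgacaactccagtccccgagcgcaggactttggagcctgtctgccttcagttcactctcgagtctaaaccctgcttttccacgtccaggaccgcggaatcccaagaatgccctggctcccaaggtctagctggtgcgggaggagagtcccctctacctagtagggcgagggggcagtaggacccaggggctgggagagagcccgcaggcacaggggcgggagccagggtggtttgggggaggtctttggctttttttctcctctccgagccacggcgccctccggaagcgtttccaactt
The first 3 are clade b genes that were lower in KR-N-/- tumours, and the last 3 belong to clades a, f and h and were higher in a Notch1-deleted group. The Serpinb11 window holds matches to the loose AP-1 form 181 and 76 bases upstream of the start and an Rbpj core 19 bases downstream. The middle bases of these AP-1 matches are T and A, while the usual AP-1 motif has C or G there. The Serpinb3a window holds a TATA box 65 bases upstream, and the Serpina3n window holds Rbpj cores 165 and 28 bases upstream. The windows of Serpinb6d, Serpinf1 and Serpinh1 hold none of the 3 motifs. The Serpinh1 window has 16 CpG dinucleotides, against 0 for Serpinb11 and Serpinb6d, 1 for Serpinb3a and 3 for Serpina3n and Serpinf1. A match is a description of letters and no evidence that a factor binds. A window was found for 42 of the 49 genes.

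A probe was kept for testing when its detection p-value, a rank against the array's negative controls, was under 0.05 on at least 4 arrays. This kept 23 of the 60 serpin probes (38.3%), for 20 genes, against 53.8% of all probes on the array. Of the 60, 16 were detected on all 23 arrays, 7 on 4 to 22, 16 on 1 to 3 and 21 on none. The unkept 37 probes peaked at log2 intensities between 4.25 and 5.17, where an offset of 16 added to every intensity holds undetected probes a little above 4. A probe kept through a group in which it is high had a better chance of differing. The counts below cover kept probes only, so this selection remains in them.

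**Figure D1:**
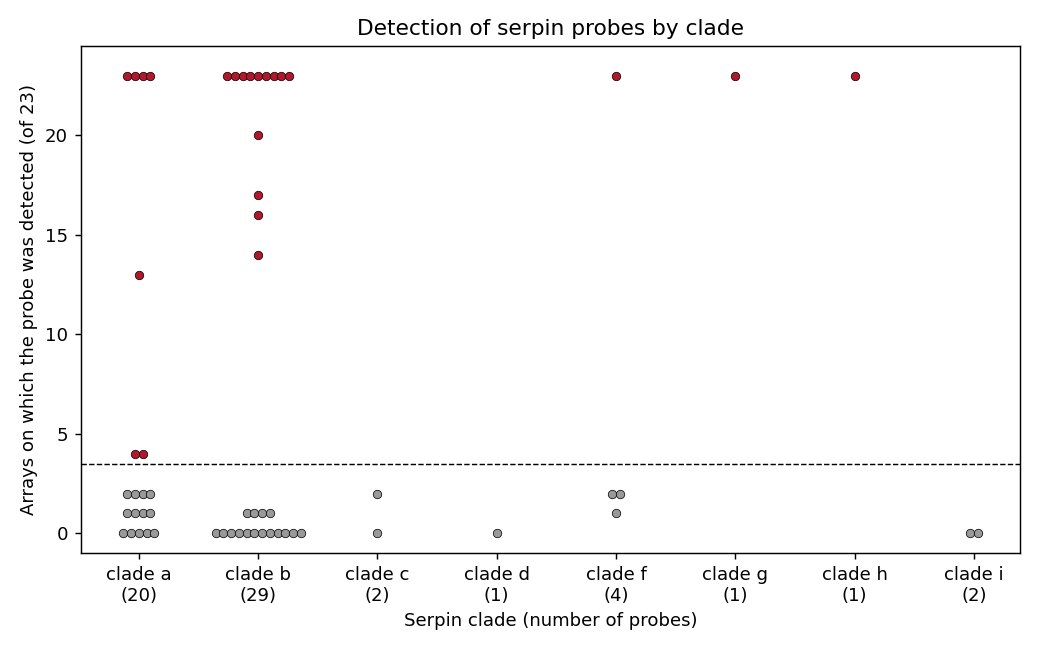
Number of arrays (0 to 23, vertical axis) on which each of the 60 serpin probes was detected, by clade (horizontal axis, number of probes in parentheses). Each point is 1 probe, red points above the dashed line are the 23 kept probes and grey points the 37 that were not kept, and 13 of the kept probes are in clade b.

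Clade b, the intracellular clade, had the most kept probes, 13 of 29, for 11 of 25 genes. Serpinb12, an epithelial inhibitor of trypsin-like proteases, gave the highest serpin signals, with group means of 12.36 to 12.64 on one probe and 12.81 to 13.04 on the other. Serpinb3a, of the family named after squamous cell carcinoma antigen, Serpinb11, Serpinb6a, an inhibitor of cathepsin G, Serpinb2, an inhibitor of urokinase also called PAI-2, and Serpinb6c were detected on all 23 arrays, as was Serpinb1a, an inhibitor of neutrophil elastase. Serpinb3c, Serpinb3d, Serpinb6d and Serpinb8 were detected on some. Serpinb5 (maspin), Serpinb7 and Serpinb9, an inhibitor of granzyme B, were detected on 0 arrays by their probes, and Serpinb13 on 1.

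Clade a had 7 of 20 probes kept, for 6 of 16 genes. Serpina12 (vaspin), an inhibitor of kallikrein 7, was kept on both of its probes, and Serpina3n, a secreted acute-phase protein that inhibits granzyme B and leukocyte elastase, and Serpina9, named in humans for germinal centre B cells, on 1 each. The alpha-1 antitrypsin genes Serpina1a, Serpina1b and Serpina1e were kept at log2 intensities between 4.15 and 5.17, close to undetected probes. Of the clade a genes best known from liver, Serpina6, the corticosteroid carrier, and Serpina10 were detected on 0 arrays, and 0 of the 4 hepatocyte markers were kept, with Alb and Fgb detected on 0 arrays.

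The remaining clades are small. Serpinf1, which encodes the non-inhibitory antiangiogenic factor PEDF, Serping1, which encodes the C1 inhibitor of complement, and Serpinh1, which encodes the collagen chaperone Hsp47, were detected on all 23 arrays. Antithrombin (Serpinc1), heparin cofactor II (Serpind1), alpha-2-antiplasmin (Serpinf2) and the clade i genes Serpini1 (neuroserpin) and Serpini2 were not kept.

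The kept genes lie mostly in 3 clusters. On chromosome 1 the order is Serpinb12, Serpinb3a, Serpinb3d, Serpinb3c, Serpinb11, Serpinb2 and Serpinb8, and on chromosome 13 it is Serpinb1a, Serpinb6d, Serpinb6c and Serpinb6a. Chromosome 12 carries the kept clade a genes. Genes numbered alike with a last letter (the Serpina1, Serpina3, Serpinb1, Serpinb3 and Serpinb6 genes) are closely related copies, and a probe may read more than 1 of them, so the assignment to a single copy is uncertain.

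Loss of Notch1 in KHR tumours went with higher signal of 5 serpin probes and lower signal of 0. Serpina3n was 2.44-fold, Serping1 2.16-fold, Serpinf1 2.02-fold, Serpina12 1.66-fold and Serpinb6c 1.65-fold higher in KHR-N-/- tumours than in KHR tumours. Of these 5 genes, 4 encode secreted proteins, and Serpinb6c is the 1 that belongs to clade b. The 5 calls among 23 kept probes (21.7%) stand beside 865 calls among all 13831 tested probes (6.25%; 3.85% higher and 2.4% lower). The median serpin difference was 0.03, against 0.005 for all probes (log2).

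Serpina3n read 7.86, 7.18, 7.52, 7.48 and 7.85 on the log2 scale in the 5 KHR-N-/- tumours, 7.10, 7.06, 6.69 and 6.51 in the 4 KHR-N+/- tumours, and 6.22, 5.93, 6.03, 6.84 and 6.42 in the 5 KHR tumours. All 5 KHR-N-/- tumours lay above every KHR and KHR-N+/- tumour. The log2 difference of KHR-N-/- from KHR was 1.29 (SE 0.20, limma adjusted p = 0.000388), and 1.32 without both doubted arrays (adjusted p = 0.000403). Without background correction it was 0.81 (adjusted p = 0.000739).

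Serping1 read 7.09, 6.79, 7.31, 7.35 and 7.53 in KHR-N-/- tumours, 6.68, 6.46, 6.74 and 6.58 in KHR-N+/- tumours, and 5.78, 5.68, 5.94, 6.33 and 6.77 in KHR tumours. The lowest KHR-N-/- tumour, at 6.79, lay just above the highest KHR tumour, replicate 5 at 6.77. The log2 difference was 1.11 (SE 0.18, limma adjusted p = 0.000388), and without both doubted arrays it was 1.28 (adjusted p = 1.17e-05). Without background correction it was 0.65 (adjusted p = 0.000823).

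Serpinf1 read 9.66, 9.94, 9.73, 9.74 and 10.34 in KHR-N-/- tumours, 8.45, 9.34, 9.35 and 9.12 in KHR-N+/- tumours, and 8.70, 8.39, 8.40, 8.97 and 9.89 in KHR tumours. KHR replicate 5, at 9.89, fell inside the KHR-N-/- range, while the other 4 KHR tumours lay below it. On the log2 scale the difference was 1.01 (SE 0.22, limma adjusted p = 0.00547), and 1.27 without both doubted arrays (adjusted p = 2.97e-05). The call was lost with median scaling (1.13, adjusted p = 0.172) and with only the compared groups in the fit (adjusted p = 0.0562).

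Serpinb6c read 8.84, 9.12, 8.95, 8.94 and 8.70 in KHR-N-/- tumours, 8.77, 8.07, 9.25 and 7.87 in KHR-N+/- tumours, and 8.37, 8.29, 8.16, 8.15 and 7.97 in KHR tumours. KHR-N-/- and KHR tumours did not overlap, and the KHR-N+/- tumours spread from below the KHR tumours to above the KHR-N-/- tumours, with the library labelled KHR-N+/- replicate 3 the highest. The log2 difference of KHR-N-/- from KHR was 0.72 (SE 0.20, limma adjusted p = 0.0294), and 0.67 without both doubted arrays (adjusted p = 0.0156). The call was lost without any 1 of 5 arrays, KHR replicates 2 and 3 and KHR-N-/- replicates 2, 3 and 4 (adjusted p = 0.0531 to 0.0764), with median scaling (adjusted p = 0.42) and without the detection filter (adjusted p = 0.067).

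Serpina12 was called on 1 of its 2 probes. The dimmer probe read 5.99, 5.68, 6.78, 5.81 and 5.95 in KHR-N-/- tumours, 6.33, 5.75, 6.20 and 5.21 in KHR-N+/- tumours, and 5.21, 5.69, 5.36, 5.60 and 4.67 in KHR tumours. The highest of these values is KHR-N-/- replicate 3, the lowest is KHR replicate 5, and KHR-N-/- replicate 2 lay below the highest KHR tumour. The fitted difference was 0.73 (SE 0.21, limma adjusted p = 0.0388), and 0.57 without both doubted arrays (adjusted p = 0.0736). The brighter probe differed by 1.01 (SE 0.32, adjusted p = 0.0604).

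**Figure D2:**
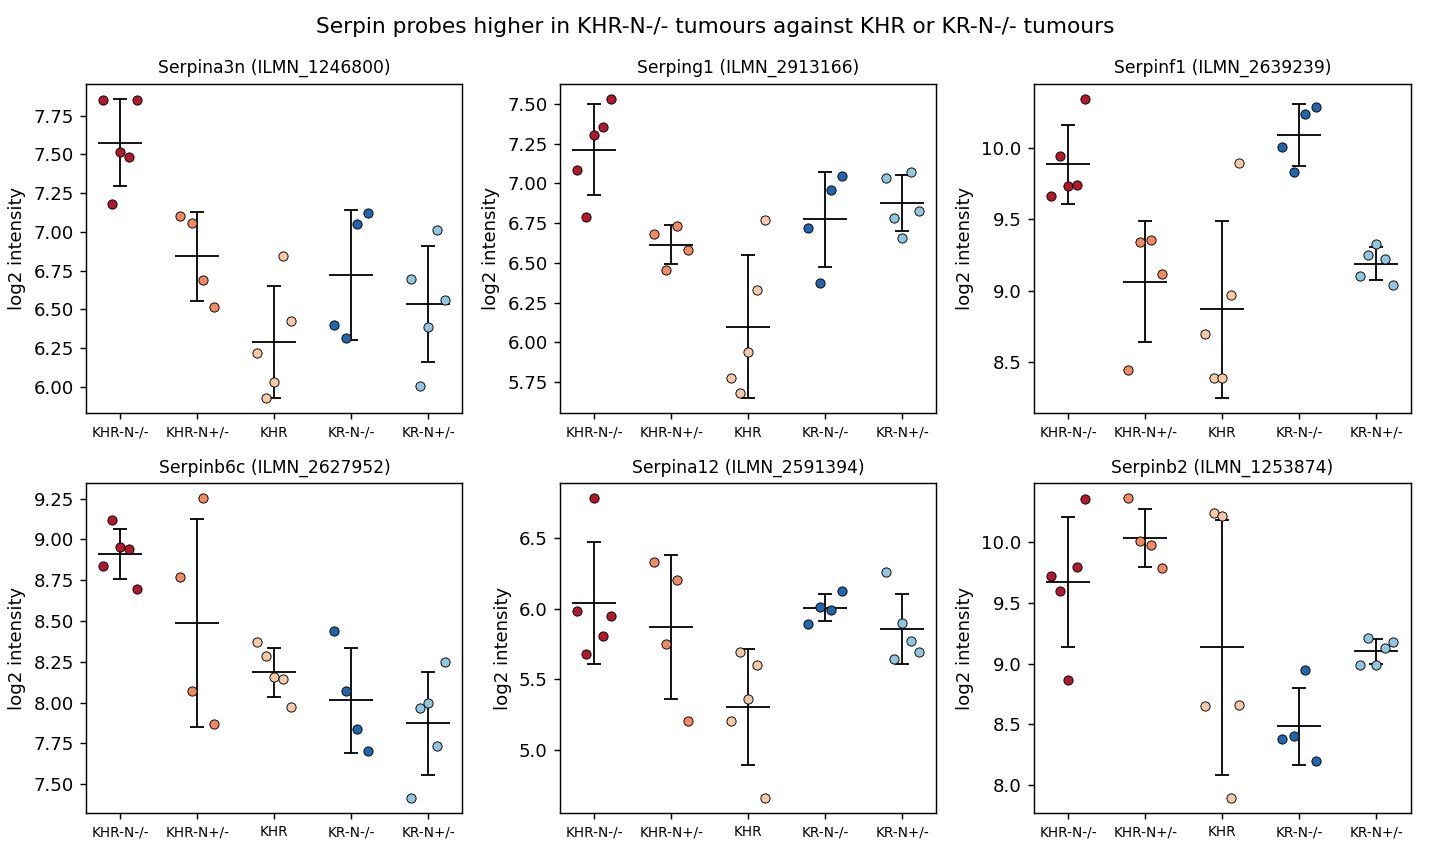
log2 intensity (vertical axis, a separate scale per panel) of 6 serpin probes in the 5 groups (horizontal axis). Points are tumours, horizontal bars are group means and whiskers 1 SD. All 5 KHR-N-/- tumours lie above all 5 KHR tumours for Serpina3n, Serping1 and Serpinb6c, while KHR replicate 5 overlaps them for Serpinf1.

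Several clade b and a genes gave lower mean values in KHR-N-/- tumours without passing the test while KHR replicate 5 was in the fit. Serpina9 read 5.85, 5.49, 6.58, 5.79 and 5.54 in KHR-N-/- tumours, against 6.72, 7.01, 7.72, 6.61 and 5.13 in KHR tumours, of which replicate 5 was the lowest. Without KHR replicate 5 and the library labelled KHR-N+/- replicate 3, Serpina9 differed by -1.16 (adjusted p = 0.00877), Serpinb1a by -0.74 (adjusted p = 0.0168) and the Serpinb3a probes by -0.82 and -0.58 (adjusted p = 0.00569 and 0.012). Those fits called 8 serpin probes, 4 higher and 4 lower, in place of 5 and 0, while the calls among all probes became 1545 (11.2%) in place of 865. With all arrays the same probes differed by -0.79, -0.61, -0.47 and -0.31 (adjusted p = 0.189, 0.0689, 0.349 and 0.465). KHR replicate 5 was set aside for its serpin values, so the calls gained without it are no independent result.

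Some genes of the protease and complement lists also differed between KHR-N-/- and KHR tumours. Of 7 measured genes of the complement C1 and lectin pathway, whose C1 proteases Serping1 inhibits, 2 were higher and 0 lower, C1qb by 0.80 and C1qc by 0.55. Both encode recognition subunits of C1 and no protease, and C1qb is also on the macrophage list. Of 5 granule serine proteases, 2 were higher, the mast cell proteases Cma1 by 0.63 and Tpsb2 by 0.82. Of 16 epithelial serine proteases, which include the kallikreins, 0 were higher and 5 lower, among them Tmprss11b by -1.30, Prss22 by -1.31 and Klk11 by -0.70. Klk7, the known target of Serpina12, was not among the 5. The median of the epithelial list was -0.58, against 0.005 for all probes.

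Markers of other cells moved in the same comparison. All 7 measured fibroblast and matrix markers were higher in KHR-N-/- tumours, with summed normalised intensities on the linear scale of 2365 to 3303, against 942.4 to 1768 in KHR tumours, while Postn was detected on 0 arrays. Skeletal muscle markers were higher for 7 of 8 genes (summed intensity 3805 to 5163, against 1635 to 2682 in KHR), macrophage markers for 3 of 4 (203.8 to 301.6, against 110.9 to 188.8) and mast cell markers for 3 of 4 (109 to 159.5, against 73.93 to 105.2). In tumour pieces, more cells of a type and more RNA per cell cannot be told apart. The part of these cells in the higher Serpina3n, Serping1 and Serpinf1 values was not tested.

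Single-copy loss of Notch1 in KHR tumours changed 0 of 23 serpin probes by the limma test, beside 135 of all probes (0.976%; 0.607% higher and 0.369% lower). At an unadjusted p under 0.05, 7 of 23 serpin probes differed, beside 1440 of all probes (10.4%), and the smallest adjusted p was 0.195. Serpinb2 averaged 10.04 ± 0.24 in KHR-N+/- tumours and 9.13 ± 1.05 in KHR tumours (SD, n = 4 and 5), a difference of 0.90 (SE 0.35, adjusted p = 0.296), or 0.805 without both doubted arrays (adjusted p = 0.475). Serpinh1 averaged 5.13 ± 0.20 in KHR-N+/- tumours and 5.63 ± 0.28 in KHR tumours (SD, n = 4 and 5), a difference of -0.50 (SE 0.17, adjusted p = 0.209), or -0.57 without both (adjusted p = 0.191). Both pairs of ranges overlapped.

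Between KHR-N-/- and KHR-N+/- tumours 0 of 23 serpin probes passed the limma test, beside 7 of all probes (0.0506%; 0.0362% higher and 0.0145% lower). At an unadjusted p under 0.05, 6 of 23 serpin probes differed, beside 1019 of all probes (7.37%). The largest differences were those of Serpinf1 at 0.82 (SE 0.23, adjusted p = 0.239) and Serpina3n at 0.73 (SE 0.21, adjusted p = 0.266). For both genes all KHR-N-/- tumours lay above all KHR-N+/- tumours. Without both doubted arrays 1 serpin probe was called, that of Serpinf1 (0.92, adjusted p = 0.0165), beside 102 of all probes (0.737%). KHR replicate 5 is in neither of these groups and enters only through the spread that all groups share. It was set aside for its serpin values, so the Serpinf1 call is no independent result.

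In KR tumours the absence of Notch1, compared with 1 copy, went with lower Serpinb11, Serpinb1a, Serpinb3a and Serpinb6d, all of clade b, and with higher Serpinf1, Serpinh1 and the clade b gene Serpinb6a. Serpinb11 was 2.65-fold, Serpinb1a 2.02-fold and Serpinb3a 1.98-fold and 1.96-fold (on its 2 probes) lower in KR-N-/- than in KR-N+/- tumours. Serpinb6d was lower too, but was detected in 2 of 4 KR-N-/- tumours, so no fold is given. Serpinf1 was 1.86-fold, Serpinh1 1.58-fold and Serpinb6a 1.47-fold higher. The 8 calls among 23 kept probes (34.8%) stand beside 2058 among all 13831 (14.9%; 8.19% higher and 6.69% lower). Of the 13 clade b probes, 5 were called lower and 1 higher. They had a median difference of -0.62 and 11 of them were negative, against a median of 0.02 for all probes.

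Serpinb11, a clade b member known from epithelium, read 9.32, 8.51, 9.14 and 8.82 in the 4 KR-N-/- tumours, against 10.24, 10.40, 10.30, 10.16 and 10.68 in the 5 KR-N+/- tumours. Every KR-N-/- tumour lay below every other tumour of the 23. This is a log2 difference of -1.41 (SE 0.25, limma adjusted p = 0.00116).

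Serpinb1a read 5.79, 5.64, 5.77 and 5.79 in KR-N-/- tumours, against 6.94, 7.07, 6.12, 6.81 and 6.87 in KR-N+/- tumours. The KR-N-/- tumours lay close together and below all KR-N+/- tumours, whose lowest was replicate 3. The log2 difference was -1.02 (SE 0.21, limma adjusted p = 0.00305), and -0.54 without background correction (adjusted p = 0.00826).

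Serpinb3a fell on both probes. The brighter probe read 10.84, 10.30, 10.75 and 10.63 in KR-N-/- tumours, against 11.86, 11.99, 11.36, 11.42 and 11.37 in KR-N+/- tumours, and differed by -0.97 (SE 0.22, limma adjusted p = 0.00567). The dimmer probe read 6.92, 6.78, 6.79 and 6.67 in KR-N-/- tumours, against 7.89, 8.01, 7.99, 7.31 and 7.68 in KR-N+/- tumours, and differed by -0.98 (SE 0.28, limma adjusted p = 0.0209). On neither probe did the groups overlap. The dimmer probe lost its call without KR-N-/- replicate 2 (adjusted p = 0.054) or 4 (adjusted p = 0.0544) and without the detection filter (adjusted p = 0.0514). The related Serpinb3c differed by -1.17 (SE 0.48, adjusted p = 0.0995) and was detected in 2 of 4 KR-N-/- tumours and 5 of 5 KR-N+/- tumours.

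Serpinb6d read 4.45, 4.26, 4.67 and 6.30 in KR-N-/- tumours, against 5.57, 5.70, 6.32, 7.95 and 6.33 in KR-N+/- tumours. KR-N-/- replicate 4 lay among the KR-N+/- tumours and the other 3 lay below them, while KR-N+/- replicate 4 was by far the highest of the 23. On the log2 scale the difference was -1.45 (SE 0.36, limma adjusted p = 0.01). It became -1.91 without KR-N-/- replicate 4 (adjusted p = 0.00233), -1.06 without KR-N+/- replicate 4 (adjusted p = 0.0227) and -1.23 without KR-N-/- replicate 2, where the call was lost (adjusted p = 0.0515). Without background correction it was -0.625 (adjusted p = 0.038).

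Serpinb6a, in the same chromosome 13 cluster as Serpinb6d, moved the other way. It read 10.70, 10.67, 10.89 and 10.65 in KR-N-/- tumours, against 9.76, 10.54, 10.47, 9.91 and 10.17 in KR-N+/- tumours, with no overlap. The fitted difference was 0.56 (SE 0.15, limma adjusted p = 0.0158).

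Serpinf1 read 10.00, 9.83, 10.24 and 10.29 in KR-N-/- tumours, against 9.10, 9.25, 9.33, 9.23 and 9.04 in KR-N+/- tumours. The 4 KR-N-/- tumours lay well above the 5 KR-N+/- tumours, which lay close together. This is a log2 difference of 0.90 (SE 0.23, limma adjusted p = 0.0117).

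Serpinh1 read 5.85, 5.85, 5.56 and 5.66 in KR-N-/- tumours, against 4.69, 5.34, 5.32, 4.63 and 5.36 in KR-N+/- tumours. The groups did not overlap, and KR-N+/- replicates 1 and 4 were lower than the other 3. The log2 difference was 0.66 (SE 0.17, limma adjusted p = 0.00999). These levels lie near those of undetected probes, where the added offset shrinks differences, and without background correction the difference was 0.25 (adjusted p = 0.0136).

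**Figure D3:**
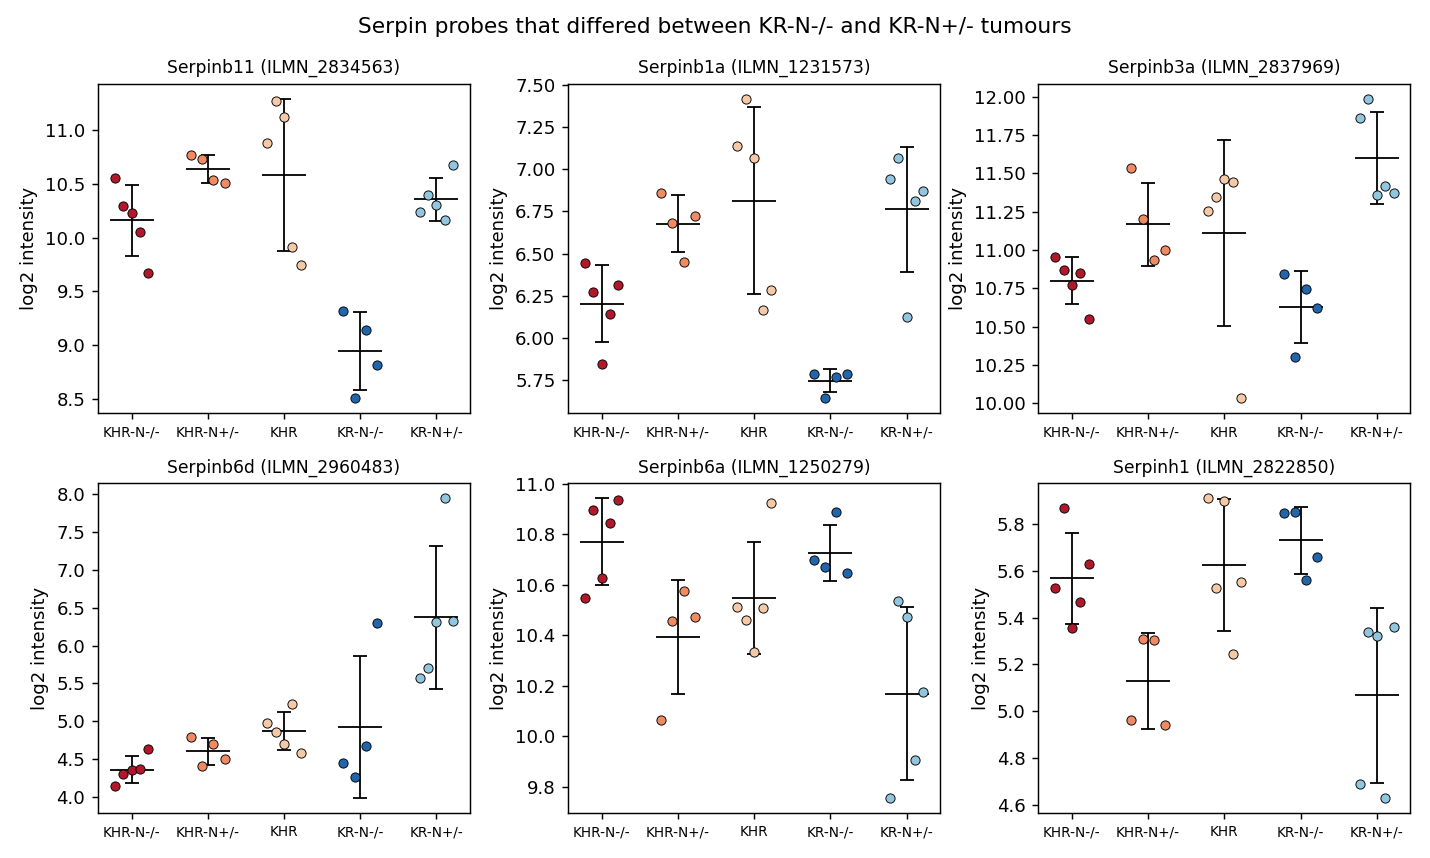
log2 intensity (vertical axis, a separate scale per panel) of 6 serpin probes that differed between KR-N-/- and KR-N+/- tumours, shown in all 5 groups (horizontal axis). Points are tumours, horizontal bars are group means and whiskers 1 SD. The 4 KR-N-/- tumours lie below all 5 KR-N+/- tumours for Serpinb11, Serpinb1a and Serpinb3a, and 1 of the 4 lies among them for Serpinb6d.

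The collagens that Hsp47 carries were higher together with its gene Serpinh1 in KR-N-/- tumours. Of 8 measured collagen genes 5 were higher and 0 lower, among them Col1a1 by 2.37, Col6a1 by 1.97 and Col5a1 by 1.47. Of 13 genes of collagen folding and modification 8 were higher, among them Bmp1 by 1.09, Plod3 by 0.95 and P4ha1 by 0.93. In KHR-N-/- tumours, compared with KHR, 5 of the 8 collagens (Col6a1 by 2.13, Col5a1 by 1.79 and Col1a2 by 1.65 among them) and 3 of the 13 folding genes (Lox by 1.38, Bmp1 by 0.93 and Plod3 by 0.61) were higher as well. Serpinh1 itself read 5.53, 5.87, 5.36, 5.47 and 5.63 in KHR-N-/- tumours, against 5.91, 5.53, 5.90, 5.24 and 5.55 in KHR tumours. These ranges overlapped, with a difference of -0.06 (SE 0.16, limma adjusted p = 0.896). Against KHR-N+/- tumours, the control genotype of the KR comparison, it differed by 0.44 without overlap (SE 0.17, limma adjusted p = 0.467). The interaction for Serpinh1 was -0.22 (limma adjusted p = 0.871).

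Epithelial serine proteases were lower beside these 4 clade b genes in KR-N-/- tumours. Of 16 measured genes 11 were lower and 0 higher, among them Klk6 by -1.54, Klk13 by -1.33 and Klk7 by -0.92, and the list's median was -1.19. Serpina12, which inhibits kallikrein 7, differed by 0.15 and -0.05 on its probes (adjusted p = 0.701 and 0.945). Serpina9 differed by -1.005 (SE 0.36, adjusted p = 0.0606).

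Other cell markers differed less uniformly between these groups. Of 4 measured neutrophil markers, S100a8 and S100a9, which keratinocytes also make, were lower, both by -1.09, with summed intensities of 7041 to 15850 in KR-N-/- tumours, against 16000 to 26500 in KR-N+/- tumours, and Mpo was not kept. Endothelial markers were higher for 2 of 4 genes (154.4 to 203.3, against 109.3 to 149.5), fibroblast and matrix markers for 3 of 7 (1638 to 2223, against 1372 to 2273), and 1 of 8 muscle genes, Ckm, was lower (3656 to 7925, against 4876 to 8487). Of 4 measured platelet markers 1 was called, Ppbp, which was lower by -4.165, and the list's median was -0.135. The list sums were 122.8 to 159.1 in KR-N-/- tumours, against 216.5 to 1295 in KR-N+/- tumours. Keratinocyte markers summed to 32240 to 36930 in KR-N-/- tumours, against 24460 to 34480 in KR-N+/- tumours, with 0 of 5 called. The part of these cells in the serpin differences was not tested.

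The 8 calls in KR tumours depend on quantile normalization. With median scaling in its place 0 serpin probes were called, beside 3 of all probes, although the 8 differences kept their signs, for example -1.46 for Serpinb11 (adjusted p = 0.617) and 0.93 for Serpinf1 (adjusted p = 0.868).

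Serpinf1 was the only serpin called in both comparisons of Notch1-deleted tumours, KHR-N-/- with KHR and KR-N-/- with KR-N+/-, which share no arrays but differ in their control genotype. This holds with all arrays in the fit. Without both doubted arrays Serpinb1a and both Serpinb3a probes also passed in KHR-N-/- with KHR, with the values given above. They were then lower in both comparisons. KHR replicate 5 was doubted for its serpin values, so these added calls do not bear on agreement between the types. Serpina3n and Serping1, called in KHR-N-/- tumours, differed by 0.19 and -0.10 in KR-N-/- tumours (adjusted p = 0.6 and 0.766). Serpinb11, called in KR-N-/- tumours, differed by -0.43 in KHR-N-/- tumours (adjusted p = 0.339). The interaction compares the step from N+/- to N-/- between the types, (KHR-N-/- minus KHR-N+/-) minus (KR-N-/- minus KR-N+/-), so it does not test the difference between those 2 comparisons. It passed for 0 of 23 serpin probes and 0 of all probes (0%) in limma. At an unadjusted p under 0.05 it held 3 of 23 serpin probes, beside 1116 of all probes (8.07%). These were Serping1 at 0.70, Serpinb11 at 0.93 and Serpinb6d at 1.21 (adjusted p = 0.5, 0.503 and 0.54).

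**Figure D4:**
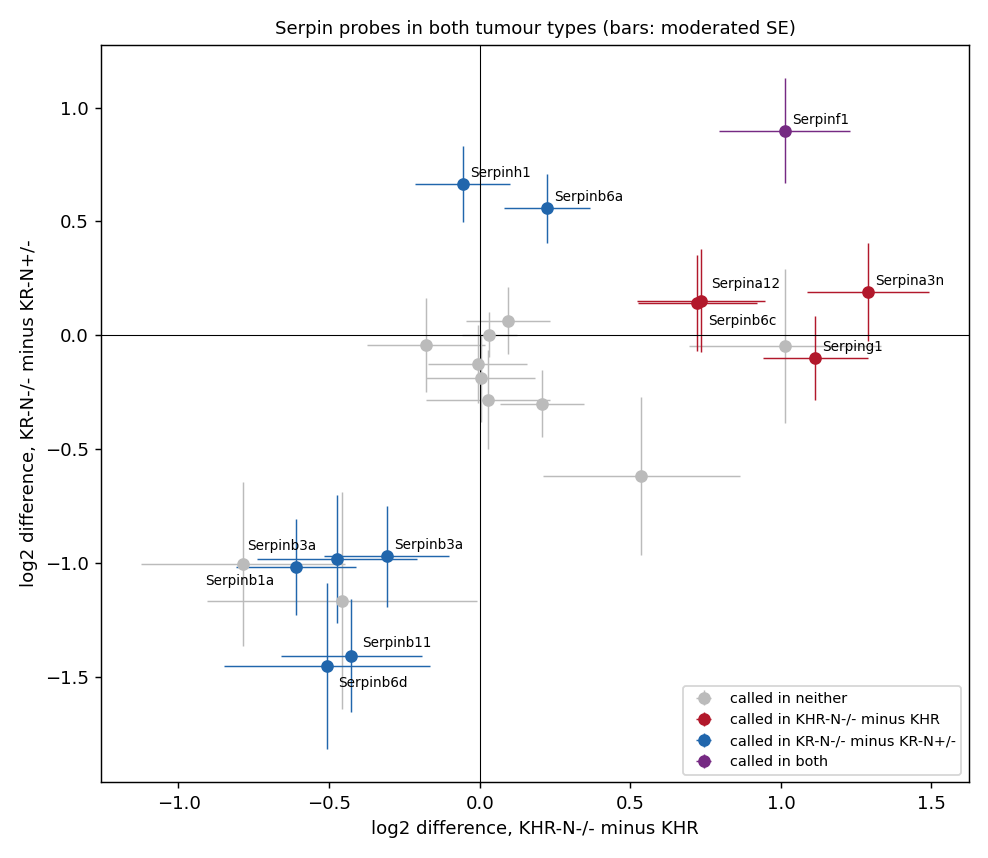
log2 difference of the 23 kept serpin probes in KHR-N-/- minus KHR (horizontal axis) and KR-N-/- minus KR-N+/- (vertical axis), with bars of 1 moderated SE. Colours give the comparison in which a probe was called. With all arrays in the fit Serpinf1 is the 1 probe called in both. Serpinb1a and Serpinb3a are called in both only without both doubted arrays, of which KHR replicate 5 was doubted for its serpin values. Serpina3n and Serping1 lie near 0 on the vertical axis, and Serpinh1 lies near 0 on the horizontal axis.

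Between the tumour types, Serpinb6d was the 1 serpin probe that differed with 1 copy of Notch1. It read 4.79, 4.41, 4.70 and 4.49 in KHR-N+/- tumours, against 5.57, 5.70, 6.32, 7.95 and 6.33 in KR-N+/- tumours. The groups did not overlap, and all KHR-N+/- values were near those of undetected probes. On the log2 scale the difference was -1.77 (SE 0.36, limma adjusted p = 0.00478). It was -1.81 without both doubted arrays (adjusted p = 0.0142) and -0.76 without background correction (adjusted p = 0.0298). The 1 call among 23 (4.35%) stands beside 679 of all probes (4.91%; 3.04% higher and 1.87% lower). Without KR-N+/- replicate 4 the Serpinb6d difference became -1.38 (adjusted p = 0.0101). Of 8 skeletal muscle markers, 5 were lower in KHR-N+/- tumours, among them Ckm by -1.43, Mylpf by -1.22 and Mb by -1.13, with summed intensities of 2776 to 4436 in KHR-N+/- tumours, against 4876 to 8487 in KR-N+/- tumours, and their part in the Serpinb6d difference was not tested.

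Over all groups, Serpinb6d averaged 4.36 ± 0.18 in KHR-N-/- tumours, 4.60 ± 0.18 in KHR-N+/- tumours, 4.87 ± 0.25 in KHR tumours, 4.92 ± 0.94 in KR-N-/- tumours and 6.37 ± 0.95 in KR-N+/- tumours (SD, n = 5, 4, 5, 4 and 5). It was detected in 1, 3, 5, 2 and 5 tumours of these groups in that order. The KHR-N-/- values were 4.14, 4.30, 4.35, 4.37 and 4.63 and the KHR values 4.97, 4.85, 4.70, 5.23 and 4.58, which overlap, with a difference of -0.51 (SE 0.34, adjusted p = 0.467). Each group's range overlapped that of its neighbour in this order.

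With Notch1 absent in both types, 4 serpin probes were higher in KHR-N-/- than in KR-N-/- tumours and 0 lower (17.4%, beside 12.5% of all probes, 6.77% higher and 5.69% lower). Serpinb11 was 2.32-fold higher (log2 difference 1.21, SE 0.25, limma adjusted p = 0.00328), with 10.55, 10.29, 10.23, 10.05 and 9.67 in KHR-N-/- tumours, against 9.32, 8.51, 9.14 and 8.82 in KR-N-/- tumours. No values overlapped. Serpinb6c was 1.86-fold higher (0.90, SE 0.21, limma adjusted p = 0.00842), with 8.70 to 9.12 in KHR-N-/- tumours, against 8.44, 8.07, 7.84 and 7.71 in KR-N-/- tumours, again with no overlap.

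Serpinb2 was 2.28-fold higher in KHR-N-/- tumours. It read 9.73, 9.60, 8.87, 9.80 and 10.36 in KHR-N-/- tumours, against 8.38, 8.41, 8.94 and 8.20 in KR-N-/- tumours, and KHR-N-/- replicate 3 fell below the highest KR-N-/- tumour. The fitted difference was 1.19 (SE 0.35, limma adjusted p = 0.027). In KHR tumours Serpinb2 was split, with 8.65, 10.25, 10.22, 7.89 and 8.66, so that 2 tumours lay within the range of the KHR-N+/- tumours, at 10.36, 10.01, 9.98 and 9.79, and 3 lay below it. The KR-N+/- tumours lay close together at 8.99, 9.21, 8.99, 9.13 and 9.18.

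Serpina3n was 1.81-fold higher in KHR-N-/- than in KR-N-/- tumours (0.85, SE 0.21, limma adjusted p = 0.0123). KR-N-/- tumours read 6.40, 6.32, 7.05 and 7.12, all below the KHR-N-/- tumours, and KR-N+/- tumours read 6.70, 6.00, 6.39, 7.01 and 6.56. The call was lost without KR-N-/- replicate 1 (0.75, adjusted p = 0.0504) or replicate 2 (0.72, adjusted p = 0.0596), and Serpinb2 lost its call without any 1 of 5 arrays, KHR-N-/- replicates 4 and 5 and KR-N-/- replicates 1, 2 and 4 (1.02 to 1.16). With median scaling the 4 differences were larger, 1.88 for Serpinb11, 1.58 for Serpinb6c, 1.86 for Serpinb2, whose call was lost (adjusted p = 0.0525), and 1.501 for Serpina3n, while the median of all probes was 0.38. Without background correction Serpina3n differed by 0.56 (adjusted p = 0.00957). Epithelial serine proteases were higher for 7 of 16 genes in KHR-N-/- tumours, among them Klk6 by 1.61, Prss27 by 1.13 and Klk7 by 0.84. S100a8 and S100a9 were higher by 1.39 and 1.35, with neutrophil sums of 21040 to 30390 in KHR-N-/- tumours, against 7041 to 15850 in KR-N-/- tumours, and Mpo was not kept. The macrophage gene Cd163 was higher by 0.56 (list sums 203.8 to 301.6, against 133.8 to 229.2 in KR-N-/-), the mast cell gene Cpa3 was higher by 0.63 (109 to 159.5, against 78.89 to 148.8) and the endothelial gene Pecam1 was lower by -0.63 (119.4 to 142, against 154.4 to 203.3), each 1 of 4 measured genes. The part of these cells in the serpin differences was not tested.

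**Figure D5:**
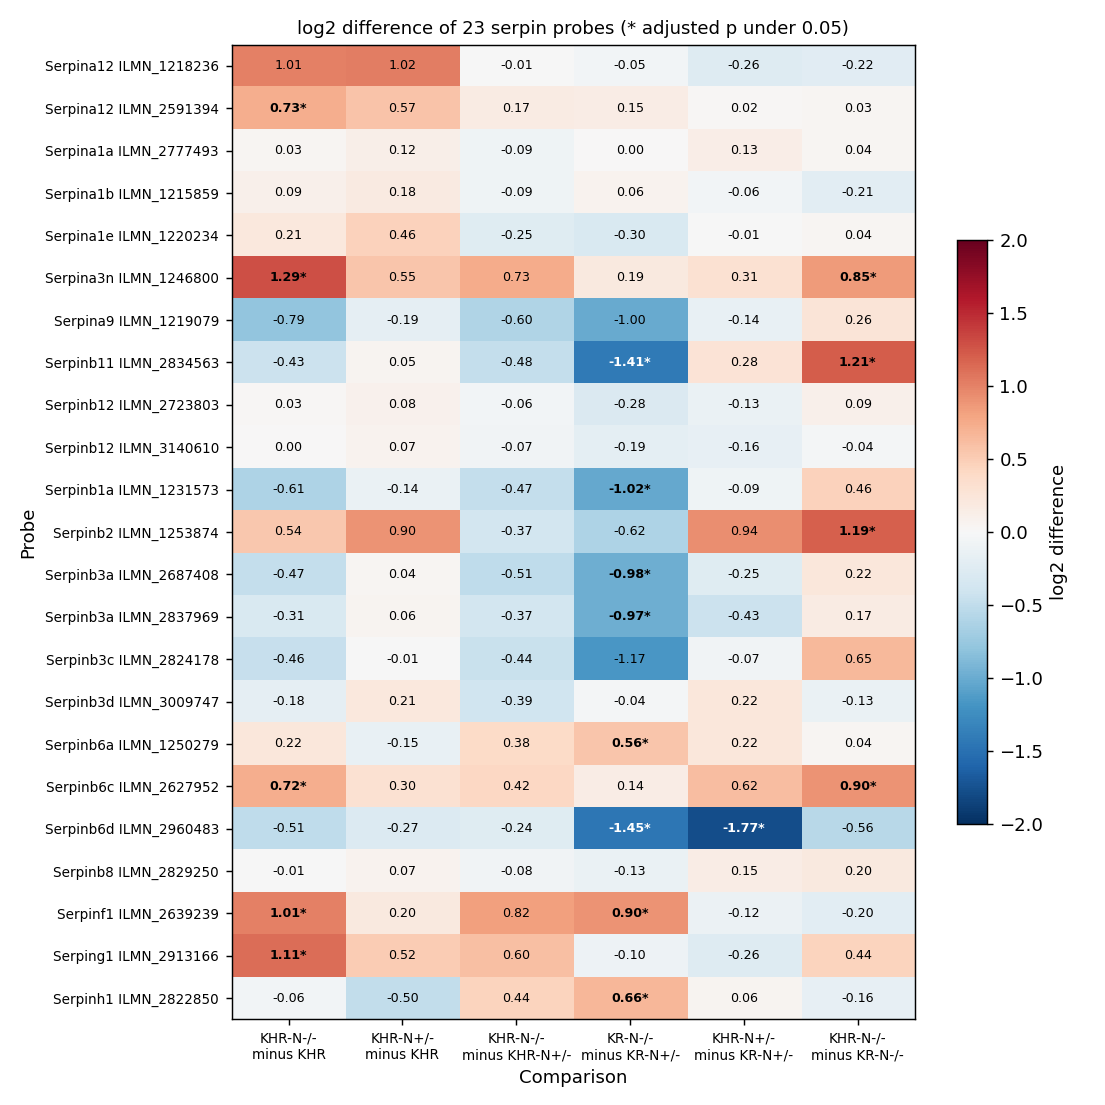
log2 differences of the 23 kept serpin probes (rows, gene and probe) in the 6 comparisons between groups (columns). Colour and number give the difference, and an asterisk marks an adjusted p under 0.05. Calls higher in KHR-N-/- than in KHR sit in clades a, f and g and at Serpinb6c, those higher than in KR-N-/- are Serpina3n, Serpinb2, Serpinb6c and Serpinb11, and the calls lower in KR-N-/- than in KR-N+/- are all in clade b.

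Over the 7 comparisons, 13 of the 23 kept probes, for 12 genes, were called at least 1 time and 10 were called in none. The share of all probes called at least 1 time was not analysed here, so this count has no background to be read against. The brightest serpin, Serpinb12, was among the 10. Its probes differed by -0.28 to 0.09 in the 6 comparisons between groups (log2), but KHR replicate 5 read 11.20 and 11.75 on them, below all other tumours. Serpinb8, which in humans inhibits furin, Serpinb3d and the Serpina1 probes read 5.44 or less on every array and were not called.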

How the data were processed

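RNA was extracted with Trizol and biotin-labelled as cRNA by an Ambion kit, per the labels' protocols, and GenomeStudio and Partek are named without versions in the submitters' processing notes. The deposited scanner data give a mean bead intensity per probe and array on a linear scale, not normalized between arrays as judged from its values, with a bead number and a detection p-value per the file headers. A further 23 columns were not used. The authors' deposited series table with processed intensity served as an alternative only. Its ranks matched the scanner values (Spearman 1 on every array), 26.6% of its values are below 0, and the steps behind it are not given in the sources used here.

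Intensities were background-corrected with normexp using the detection p-values (offset 16), put on the log2 scale and quantile-normalized (limma 3.58.1, version 1.17.8 of data.table, R 4.3.3). Quantile normalization makes every level relative to the other probes of its array. Probes detected at p under 0.05 on at least 4 arrays were kept (13831). The 5 groups were fitted to all 23 arrays with lmFit and eBayes (18 residual degrees of freedom), with Benjamini-Hochberg adjustment over the 13831 probes in each of 7 comparisons and a threshold of 0.05. Standard errors (SE) are moderated, a call is an adjusted p under 0.05, and the number of arrays limits precision. Gene symbols came from the platform annotation, where 23978 probes have a single symbol and 1719 have none. Tested on simulated data for KHR-N-/- with KHR (13831 probes), the fit recovered 84 of 100 probes changed by 1 and 100 of 100 changed by 2 on the log2 scale, with 11 false calls.

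Per-array values are given for every serpin probe called in any comparison, with further values for members of known role, and at most 3 genes are named from each list of partner genes in a comparison. Members, lists and tests were chosen with earlier results of these data known. Alternatives changed the background step, offset, normalization, filter, probe choice, arrays in the fit, weights, variance prior and replicate block.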

Additional observations from a re-analysis of the deposited data

Results flagged for a closer look

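Among the 115 combinations of a kept serpin probe and a group, 13 held an array set apart from the others, in that the gap to its nearest neighbour made up most of the group's range. Chance alone marks about 1 in 20 such combinations.

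KHR replicate 5 was low for Serpinb12 on 1 probe, at 11.75 against 12.81 to 13.19 in the other KHR tumours, and for Serpinb3a on its brighter probe, at 10.03 against 11.25 to 11.47. KHR replicate 4 was high for Serpinb3d, at 5.37 against 4.24 to 4.56, and for Serpina1e, at 4.55 against 4.25 to 4.30. KHR-N-/- replicate 3 was high for Serpina12 on its dimmer probe, at 6.78 against 5.68 to 5.99, for Serpina1e, at 5.10 against 4.31 to 4.54, and for Serpina1a, at 4.60 against 4.19 to 4.29. KHR-N-/- replicate 5 was low for Serpinb12, at 12.58 against 12.85 to 12.89.

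KHR-N+/- replicate 4 was low for Serpinb12 on the other probe, at 12.30 against 12.56 to 12.61, and KHR-N+/- replicate 2 was low for Serpina1a, at 4.32 against 4.44 to 4.46. KR-N-/- replicate 2 was low for Serpinb1a, at 5.64 against 5.77 to 5.79. KR-N+/- replicate 3 was low for Serpinb1a, at 6.12 against 6.81 to 7.07, and KR-N+/- replicate 1 was high for Serpina1b, at 4.92 against 4.22 to 4.42. The cause of these values was not tested.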

How the results depend on the processing

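Over 214 repeats of the called serpin differences under other settings, 193 kept direction and call, 21 lost the call and 0 reversed. Leaving out each array in turn gave 393, 21 and 0 of 414. Many of the 414 fits left out an array of neither compared group. There the difference could not change and only the shared spread did, so these fits could not reverse a direction. For KHR-N-/- with KHR the 5 calls became 2 with median scaling (1.5% of all probes called), 3 without the detection filter (2.66%), 3 with only the compared groups in the fit (3.15%), 9 with array weights (20.4%), 8 without both doubted arrays (11.2%), and 3 to 8 leaving out each array in turn (3 without KHR replicate 3 or KHR-N-/- replicate 3, 8 without KHR replicate 5). Serpina3n and Serping1 kept their calls in all 12 settings, while Serpina12 lost its call in 6 of 11. For KHR-N+/- with KHR the 0 calls became 5 with array weights (7.9%), and 0 to 1 leaving out each array (1 without KHR replicate 4 or 5). For KHR-N-/- with KHR-N+/- the 0 became 3 with array weights (2.11%), 1 without both doubted arrays (0.737%), and 0 to 1 leaving out each array (1 without KHR replicate 5). For KR-N-/- with KR-N+/- the 8 became 0 with median scaling (0.0217%), ranged otherwise from 7 to 11, and were 6 to 9 leaving out each array. For KHR-N+/- with KR-N+/- the 1 became 7 with median scaling (45.8%), 2 with only the compared groups (4.27%), and 1 to 2 leaving out each array (2 without KHR replicate 4 or KHR-N+/- replicate 4). For KHR-N-/- with KR-N-/- the 4 ranged from 3 to 5, and were 2 to 4 leaving out each array (2 without KR-N-/- replicate 1 or 2). The interaction gave 0 throughout. With median scaling the median difference of all probes was 0.28 for KHR-N+/- with KHR, -0.15 for KHR-N-/- with KHR-N+/-, 0.61 for KHR-N+/- with KR-N+/-, 0.38 for KHR-N-/- with KR-N-/- and -0.16 for the interaction, against -0.022 to 0.021 with quantile normalization. The cause of these changes was not tested.

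With the replicate number as a replicate block, the counts were 6, 0, 0, 9, 1 and 4 in the 6 comparisons in the order above and 0 for the interaction. The shares of all probes called were 6.64%, 1.09%, 0.0289%, 19.2%, 4.99% and 14.9% in the same order, and 0.0362% for the interaction. Deviations of same-numbered tumours correlated from -0.35 to 0.45 (median 0.03, 43 pairs), and 8 of 23 arrays were closest to their own number. These values do not decide whether the numbers mark a shared factor. Mean bead number was 27 to 30.5 for replicate 1 and 39.6 to 40.4 for the last replicate of each group. With the block, 2649 of all probes (19.2%) were called in KR-N-/- with KR-N+/-, in place of 2058 (14.9%). The part of a factor shared by number was not tested. Probes near background, such as Serpinb6d, Serpinh1 and the Serpina1 genes, have compressed differences.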

Other observations

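Other inhibitor families and further protease groups that serpins meet were measured as well. Of 11 other protease inhibitor genes, Timp3, an inhibitor of metalloproteinases, was higher by 0.76 and Wfdc2 lower by -2.09 in KHR-N-/- tumours compared with KHR, and Cstb, which encodes the cathepsin inhibitor cystatin B, and Wfdc2 were lower by -0.69 and -0.90 in KR-N-/- tumours compared with KR-N+/-. Of 9 lysosomal cysteine cathepsins, Ctsk was higher by 1.81 (limma adjusted p = 2.19e-05) and Ctsl lower by -0.84 in KHR-N-/- tumours compared with KHR, and Ctsh and Ctsf were lower by -0.71 and -0.38 in KR-N-/- tumours.

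Of 9 genes of plasminogen activation, the system that Serpinb2 acts on, the downstream metalloproteinases Mmp9 and Mmp3 were higher by 2.54 and 2.51 in KHR-N-/- tumours compared with KHR. In KR-N-/- tumours compared with KR-N+/-, Mmp3 was higher by 1.31 and Plgrkt, a plasminogen receptor gene, lower by -0.49. Of 7 measured coagulation genes, the thrombin receptor gene F2r was higher in both comparisons, by 1.01 and 0.88. Of 3 measured cytotoxic lymphocyte markers, 0 passed in either comparison, and Cd8a, Gzmb and Gzma were detected on 0 arrays. Prf1 was lower by -1.001 in KHR-N-/- tumours compared with KR-N-/- tumours.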
